A study of Gallus gallus with 6 samples.

Results

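Genes that build the ribosome in the nucleolus were followed in cultured primordial germ cells of the chicken (PGCs), from which eggs and sperm later form, and in adherent somatic cells derived from them. The genes were chosen by their symbols in the deposited table: the NOP, NOL, NOC, UTP and RRP series, the POLR1 subunits, and named assembly factors such as DKC1, GAR1, NCL, NPM1, PES1 and WDR12. The rule itself uses no values, but it was set with earlier results of these data known. The choice gave 53 genes of 23873 in the table, all protein coding. The groups were somatic differentiated PGCs, which had attached and were enriched by aspirating the floating cells and growing the rest on for some weeks, and undifferentiated PGCs, which stayed in suspension. Each group had 3 polyA RNA libraries, called here somatic 1 to 3 and undifferentiated 1 to 3. PGCs came from the blood of embryos at Hamburger and Hamilton stage 16, and both groups are labelled with 1 culture medium, which held 1% chicken serum, 10 ng/mL FGF2, 0.2 μM of the ROCK inhibitor H1152 and 0.2 μM of the myosin inhibitor blebbistatin. The protocol speaks of PGC lines, but the labels do not tie libraries to lines or embryos, so p-values measure the spread between these libraries, which may be technical.

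Ribosomes are built in the nucleolus, where RNA polymerase I (Pol I) transcribes the long precursor of most ribosomal RNA. Small nucleolar ribonucleoproteins (snoRNPs) modify that precursor, and the small subunit processome and the large subunit assembly factors cut, fold and clothe it with ribosomal proteins before the subunits leave for the cytoplasm. Growing and dividing cells need a high rate of this work, and MYC family transcription factors are known to drive it in vertebrates.

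Values were TPM, relative transcript levels that are corrected for transcript length and scaled to 1 common total in each library, so levels can be set side by side between genes. The table holds no read counts, so the depth of each library is unknown. The labels were checked against marker genes: all 11 germ cell markers, including DDX4 and DAZL, were lower in somatic differentiated cells (summed level 1643 to 2308 TPM in somatic differentiated libraries and 6112 to 6747 TPM in undifferentiated libraries). Of 10 mesenchymal markers 9 rose and 1 was not called, with a summed level of 27693 to 33788 TPM in somatic differentiated and 2230 to 2825 TPM in undifferentiated libraries. The highest single value in this list was 27262 TPM, so 1 gene made up most of at least 1 somatic differentiated sum. KIT was not called without any 1 of undifferentiated 1 (-1.23), 2 (-1.47) or 3 (-1.36) or somatic 2 (-1.41) or 3 (-0.88), nor TFAP2C without undifferentiated 1 (-0.66) or 3 (-0.74) or somatic 1 (-0.71) or 2 (-0.78). FN1, a matrix protein, was likewise not called without undifferentiated 1 (2.21), 2 (1.71) or 3 (2.31) or somatic 1 (1.67) or 3 (1.75). With no filter on low values KIT (limma adjusted p 0.0609) and FN1 (limma adjusted p 0.0576) were not called either. In such bulk samples, fewer cells of a type and less RNA per cell cannot be told apart. Undifferentiated 2 differed from undifferentiated 1 and 3 in many genes: in 33.1% of all genes tested it lay at least 0.5 on the log2 scale below their mean. The like share was not computed for the other libraries. Members whose call changes without undifferentiated 2 are named as such.

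Most ribosome biogenesis genes were lower in somatic differentiated cells. Of the 53 genes, 42 fell, 0 rose and 11 were not called, by limma on log2(TPM + 1) at a Benjamini-Hochberg adjusted p under 0.05 over all 12996 genes tested. Among all genes tested, 22.0% fell and 17.9% rose. Most members are abundant. Among 6970 genes whose mean reached 20 TPM, 27.6% fell and 18.2% rose. The median log2 change over the members was -0.70, against -0.11 over all genes tested. In 46 of the 53 genes every somatic differentiated library lay below every undifferentiated one, as it did in 30.6% of all genes tested, and in 0 members the order was the reverse. The changes were moderate: 4 members, POLR1B, POLR1D, UTP4 and NOL4, fell by at least 1 on the log2 scale, as 7.77% of all genes tested did. Changes on this scale understate those of genes with low TPM.

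**Figure D1:**
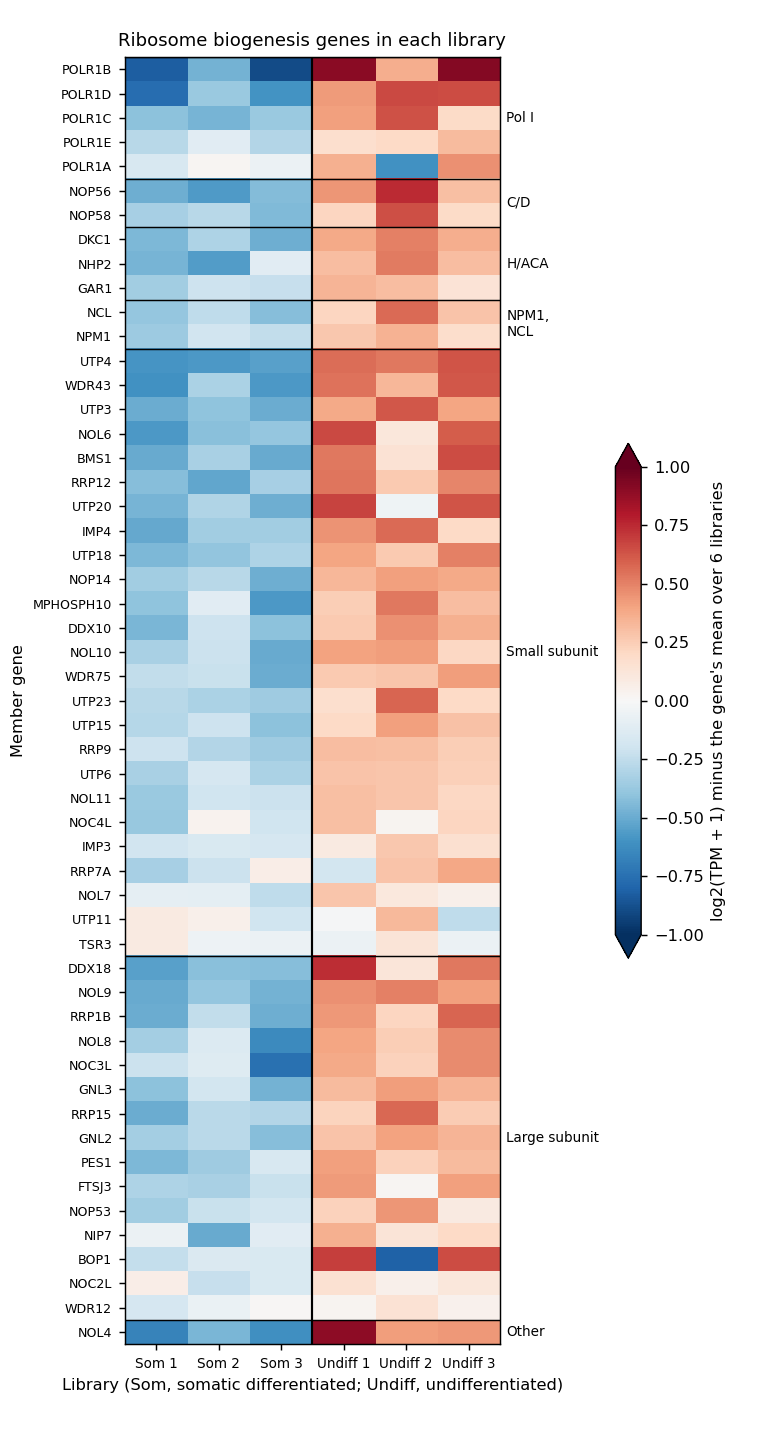
Expression of the 53 ribosome biogenesis genes in the 6 libraries, as log2(TPM + 1) minus each gene's mean over the libraries (colour, log2 scale, cut at 1 and -1), with genes grouped by role. The 3 somatic differentiated libraries on the left are below the mean for nearly all genes, and undifferentiated 2 is low for POLR1A and BOP1.

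TPM values are relative, so the result was also read under another scaling. With median of ratios scaling, which takes the typical gene as fixed, the median of all genes tested was 0.005, in place of -0.106, and the members' median was -0.587. Relative to the median of all genes, the members' median was -0.597 as deposited and -0.592 rescaled. The scaling divides each library by 1 factor, so this gap could hardly change and says nothing about robustness. Over all alternatives the gap ran from -0.687 without undifferentiated 1 to -0.444 with quantile normalization, and it was -0.477 without undifferentiated 2. Under median of ratios scaling 29 of the 53 members were called lower and 0 higher, while 17.5% of all genes tested fell and 22.2% rose. All 29 were among the 42. The 13 calls lost were those of GAR1, MPHOSPH10, NCL, NHP2, NOL11, NOP53, NOP58, NPM1, POLR1E, RRP15, UTP15, UTP23 and UTP6, and their rescaled changes are given with each gene. With the replicate number as a block, 39 members and 17.0% of all genes tested were called lower.

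The members also varied little between libraries of 1 group. The median SD of log2(TPM + 1) over the members was 0.095 in somatic differentiated and 0.122 in undifferentiated libraries, against 0.206 and 0.248 over all genes tested in the same groups. The members were also more abundant, with a median level of 67.2 and 115.3 TPM in these groups, against 22.9 and 21.1 TPM over all genes tested. Spread was not compared at like levels, so it cannot be called a trait of these genes. The order of levels among the 53 genes was nearly kept, with a Spearman correlation of 0.97 between their mean TPM in somatic differentiated and in undifferentiated cells. The size of a member's fall had little relation to its level, with a correlation of -0.104 between log2 change and mean TPM in undifferentiated cells. Both correlations describe 53 genes measured in the same 6 libraries.

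The first group of members was Pol I itself, of which 5 subunits were listed under the chosen symbols: 4 fell and 1 was not called. POLR1B is the second largest subunit and forms part of the catalytic centre (ENSGALG00000032273, GRCg6a chromosome 3, 16112592 to 16128910). It measured 77.4, 99.0 and 73.6 TPM in somatic 1 to 3, against 258.4, 177.2 and 261.4 TPM in undifferentiated 1 to 3. All somatic differentiated libraries were far below the lowest undifferentiated one, and the log2 change of -1.46 (SE 0.20, limma adjusted p 0.00239) was the largest fall of all members on this scale. NOL4, at low TPM, nevertheless kept a smaller share of its mean TPM in undifferentiated cells. POLR1D (ENSGALG00000007470, chromosome 4, 11170881 to 11177013), a small subunit shared with RNA polymerase III, had 6.72, 9.16 and 7.66 TPM in somatic 1 to 3, and 16.6, 19.7 and 19.6 TPM in undifferentiated 1 to 3. It fell by 1.16 (SE 0.19, limma adjusted p 0.00446) without overlap. Its partner POLR1C, which is shared in the same way, averaged 19.9 ± 0.728 TPM in somatic differentiated and 36.5 ± 5.80 TPM in undifferentiated cells (SD, n = 3 each). POLR1C fell by 0.83 (limma adjusted p 0.00852), again with no overlap.

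The other Pol I subunits gave smaller changes. POLR1E, a subunit particular to Pol I, averaged 33.6 ± 2.37 TPM in somatic differentiated and 46.5 ± 2.56 TPM in undifferentiated cells (SD, n = 3 each), and fell by 0.46 (limma adjusted p 0.0312). The POLR1E call did not hold without undifferentiated 1 (-0.49), undifferentiated 3 (-0.41), somatic 1 (-0.43) or somatic 3 (-0.43), and under median of ratios scaling (-0.34, limma adjusted p 0.125). POLR1A, the largest and catalytic subunit, had 45.9, 52.0 and 49.2 TPM in somatic 1 to 3, against 65.8, 33.5 and 70.8 TPM in undifferentiated 1 to 3. Undifferentiated 2 alone lay below the somatic differentiated libraries, and the log2 change of -0.13 had a 95% interval of -0.80 to 0.53 (limma adjusted p 0.727). Without undifferentiated 2 the change was -0.47 and passed the test (limma adjusted p 0.0169). Without undifferentiated 1 it was 0.0074 and without undifferentiated 3 it was 0.0592, and neither passed.

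Of the pair of large subunits, POLR1B was thus called and POLR1A was not. Within a library the ratio of POLR1B to POLR1A, which does not depend on the scaling of that library, was 1.69, 1.90 and 1.496 in somatic 1 to 3, against 3.92, 5.30 and 3.69 in undifferentiated 1 to 3. The ratio did not overlap between groups, with undifferentiated 2 included. The POLR1B to POLR1C ratio did overlap, with 3.87, 5.17 and 3.57 in somatic 1 to 3 and 7.16, 4.17 and 8.47 in undifferentiated 1 to 3. These ratios and those below were chosen after the values were seen and are descriptions with no test.

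The snoRNP core proteins fell together, with 5 of 5 listed members called. NOP56 and NOP58 are paired scaffold proteins of the box C/D particles that guide ribose methylation. NOP56 (ENSGALG00000032730, chromosome 4, 91041351 to 91046141) had 207.1, 196.1 and 214.1 TPM in somatic 1 to 3, and 394.3, 486.4 and 357.7 TPM in undifferentiated 1 to 3. Its level in somatic differentiated cells was 49.8% of that in undifferentiated cells, a log2 change of -0.99 (SE 0.14, limma adjusted p 0.00251). NOP58 had 356.2, 370.7 and 330.1 TPM in somatic 1 to 3, and 521.8, 702.8 and 512.3 TPM in undifferentiated 1 to 3. It fell by 0.70 (limma adjusted p 0.00964), but median of ratios scaling ended the call (-0.58, limma adjusted p 0.0819). The NOP56 to NOP58 ratio was 0.529 to 0.649 in somatic differentiated and 0.692 to 0.756 in undifferentiated libraries, without overlap.

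Box H/ACA particles guide the change of uridine to pseudouridine, and DKC1 is the enzyme that makes it. DKC1 (ENSGALG00000005054, chromosome 4, 2116619 to 2125783) had 218.9, 240.9 and 212.5 TPM in somatic 1 to 3, against 389.0, 423.9 and 385.5 TPM in undifferentiated 1 to 3. The groups were far apart compared with their spread, and DKC1 fell by 0.83 (SE 0.10, limma adjusted p 0.00184). NHP2, which binds the guide RNA, averaged 143.9 ± 24.2 TPM in somatic differentiated and 242.5 ± 20.6 TPM in undifferentiated cells (SD, n = 3 each), and fell by 0.76 (limma adjusted p 0.0076). GAR1, which contacts DKC1 in the particle, averaged 44.8 ± 2.31 TPM and 65.0 ± 4.86 TPM in the same groups, and fell by 0.53 (limma adjusted p 0.0165). The GAR1 call was lost without undifferentiated 1 (-0.49) or somatic 1 (-0.48), and median of ratios scaling ended the calls of NHP2 (-0.64, limma adjusted p 0.0545) and GAR1 (-0.41, limma adjusted p 0.094).

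The most abundant members were NPM1, a nucleolar chaperone of ribosome assembly, and NCL, nucleolin, which binds the ribosomal RNA precursor. NPM1 (ENSGALG00000002197, chromosome 13, 4020555 to 4032068) had 3279, 3679 and 3556 TPM in somatic 1 to 3, and 5076, 5358 and 4757 TPM in undifferentiated 1 to 3. NCL (ENSGALG00000032930, chromosome 9, 15430541 to 15437975) had 2141, 2354 and 2085 TPM in somatic 1 to 3, and 3263, 4158 and 3416 TPM in undifferentiated 1 to 3. Neither gene overlapped between groups. NPM1 fell by 0.53 (SE 0.10, limma adjusted p 0.00617) and NCL by 0.71 (SE 0.12, limma adjusted p 0.00492). Under median of ratios scaling neither passed the test, with -0.41 for NPM1 (limma adjusted p 0.196) and -0.60 for NCL (limma adjusted p 0.0893). These genes held 54.6% to 56.0% of the members' summed TPM in somatic differentiated and 52.8% to 55.9% in undifferentiated libraries, so sums are also given without them.

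The small subunit group, named for the processome, was the largest, with 25 members, of which 19 fell, 0 rose and 6 were not called (median log2 change -0.69). It also holds TSR3, which acts later in small subunit maturation. UTP4, WDR43, UTP15, WDR75 and NOL11 belong to the complex that first binds the start of the precursor, and all 5 fell. UTP4 (ENSGALG00000000638, chromosome 11, 18914355 to 18919580) had 28.8, 29.1 and 29.9 TPM in somatic 1 to 3, and 65.1, 63.6 and 68.4 TPM in undifferentiated 1 to 3. Both groups were very even, and UTP4 fell by 1.14 (SE 0.12, limma adjusted p 0.00119), the lowest adjusted p among the members. WDR43 (ENSGALG00000032529, chromosome 3, 9215963 to 9237768) had 79.6, 97.3 and 81.5 TPM in somatic 1 to 3, and 177.7, 153.2 and 187.3 TPM in undifferentiated 1 to 3, a log2 change of -0.996 (limma adjusted p 0.00251). WDR75 averaged 74.2 ± 7.58 TPM in somatic differentiated and 116.0 ± 7.01 TPM in undifferentiated cells (SD, n = 3 each) and fell by 0.64 (limma adjusted p 0.0082). UTP15 averaged 67.2 ± 4.80 TPM and 102.7 ± 7.64 TPM in the same groups and fell by 0.60 (limma adjusted p 0.00887). The calls of UTP15 (-0.49, limma adjusted p 0.0631) and NOL11 (-0.41, limma adjusted p 0.0872) were lost under median of ratios scaling. NOL11 fell by 0.52 (limma adjusted p 0.0126) with all libraries, and its call was also lost without undifferentiated 1 (-0.50) or somatic 1 (-0.47).

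MPHOSPH10, IMP3 and IMP4 form a small complex that joins the U3 snoRNP to the precursor. MPHOSPH10 and IMP4 were called and IMP3 was not, but whether their changes differ was not tested. IMP4 had 40.1, 45.1 and 44.9 TPM in somatic 1 to 3, and 78.8, 85.5 and 66.1 TPM in undifferentiated 1 to 3, and fell by 0.80 (limma adjusted p 0.00591). MPHOSPH10 averaged 104.1 ± 17.3 TPM in somatic differentiated and 171.4 ± 17.9 TPM in undifferentiated cells (SD, n = 3 each). It fell by 0.72 (limma adjusted p 0.0108), a call that median of ratios scaling ended (-0.61, limma adjusted p 0.0505). IMP3 had 20.2, 20.7 and 20.5 TPM in somatic 1 to 3, and 24.6, 28.1 and 25.9 TPM in undifferentiated 1 to 3. Its groups did not overlap, but the log2 change of -0.34 missed the threshold (95% interval -0.68 to -0.0021, limma adjusted p 0.0974). The IMP4 to IMP3 ratio was 1.99 to 2.19 in somatic differentiated and 2.55 to 3.20 in undifferentiated libraries, without overlap.

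The other members of the small subunit group that fell did so by 0.54 to 0.93 on the log2 scale. UTP3 led them, with 167.4, 178.5 and 167.1 TPM in somatic 1 to 3, and 307.9, 364.0 and 310.7 TPM in undifferentiated 1 to 3 (log2 change -0.93, limma adjusted p 0.00166). It was followed by NOL6 (-0.92), the GTPase BMS1 (-0.89), the export factor RRP12 (-0.85) and UTP20 (-0.84). Next came UTP18 (-0.77), NOP14 (-0.74), the helicase DDX10 (-0.72), NOL10 (-0.69), UTP23 (-0.63), the U3 snoRNP protein RRP9 (-0.57) and UTP6 (-0.54). All 12 had a limma adjusted p of 0.0298 or less. They are listed because they were called, and no called member overlapped between groups, so their lack of overlap adds no support. Among all genes tested, 30.6% had every somatic differentiated library below every undifferentiated one. Of the 12, UTP20 lost its call without undifferentiated 1 (-0.71), undifferentiated 3 (-0.73), somatic 1 (-0.81) or somatic 3 (-0.81). UTP23, at 12.98 to 13.7 TPM in somatic differentiated and 19.1 to 25.7 TPM in undifferentiated libraries, kept its call without undifferentiated 2 (-0.50). It lost it without undifferentiated 1 (-0.71) or 3 (-0.69), and without somatic 1 (-0.65), 2 (-0.63) or 3 (-0.61). Median of ratios scaling ended the calls of UTP23 (-0.52, limma adjusted p 0.11) and UTP6 (-0.42, limma adjusted p 0.0658).

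The 6 members of the small subunit group that were not called were IMP3, NOC4L, RRP7A, NOL7, UTP11 and TSR3. TSR3, an enzyme that modifies a base of the small subunit RNA late in its maturation, had 45.0, 40.7 and 40.5 TPM in somatic 1 to 3, and 40.5, 46.3 and 40.6 TPM in undifferentiated 1 to 3. UTP11 had 168.9, 163.9 and 137.9 TPM in somatic 1 to 3, and 156.8, 199.2 and 132.9 TPM in undifferentiated 1 to 3. Both genes overlapped between groups. The 95% interval of the log2 change was -0.33 to 0.30 for TSR3 and -0.45 to 0.37 for UTP11, so a fall as large as the members' median lay outside both. Their changes were -0.01 for TSR3 and -0.04 for UTP11 as deposited. They turned positive under median of ratios scaling (0.10 for TSR3 and 0.08 for UTP11), and quantile normalization turned UTP11 (0.11). NOC4L (-0.36), RRP7A (-0.32) and NOL7 (-0.29) lay between, with limma adjusted p of 0.108, 0.22 and 0.102.

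**Figure D2:**
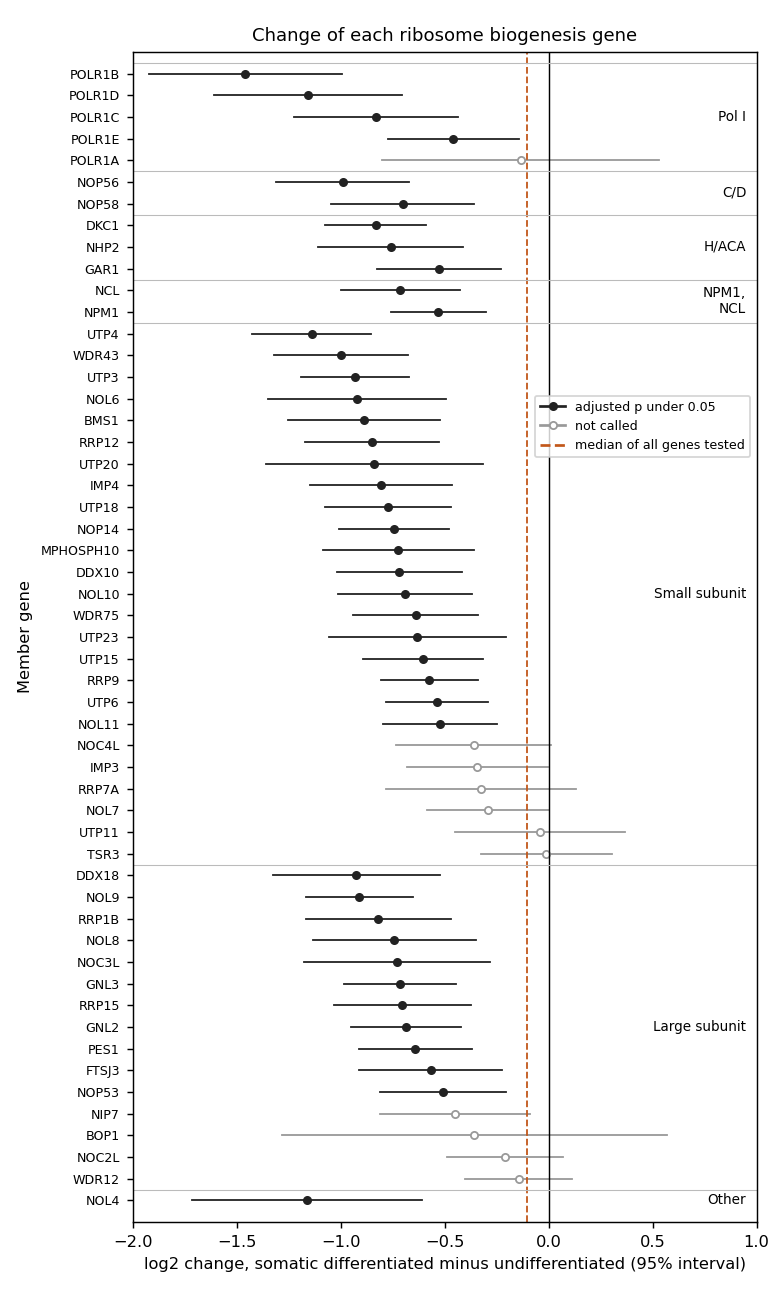
Log2 change of each member between somatic differentiated and undifferentiated cells on the log2(TPM + 1) scale, with its 95% interval from the limma fit; filled points passed an adjusted p of 0.05 and open points did not. All 53 point estimates lie below 0, though UTP11 and TSR3 turned positive under median of ratios scaling, and 42 were called. The dashed line marks the median of all genes tested, -0.106.

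Among 15 large subunit factors, 11 fell, 0 rose and 4 were not called (median log2 change -0.685). The largest fall was in DDX18, a nucleolar RNA helicase, with 105.1, 115.1 and 114.6 TPM in somatic 1 to 3, and 258.1, 167.4 and 221.9 TPM in undifferentiated 1 to 3 (log2 change -0.92, limma adjusted p 0.00635). NOL9, a kinase that acts on a cut end of the precursor, had 60.4, 65.4 and 61.7 TPM in somatic 1 to 3, and 118.4, 122.2 and 114.5 TPM in undifferentiated 1 to 3. It fell by 0.91 (limma adjusted p 0.00169), with narrow groups. The nucleolar GTPase GNL3, nucleostemin, known from stem cells, had 182.2, 212.8 and 174.0 TPM in somatic 1 to 3, and 301.9, 323.9 and 306.9 TPM in undifferentiated 1 to 3, and fell by 0.71 (limma adjusted p 0.004). None of the 3 genes overlapped between groups. Its relative GNL2 fell by 0.68 (limma adjusted p 0.00426). RRP1B (-0.82), NOL8 (-0.74), NOC3L (-0.73), RRP15 (-0.70), the RNA methyltransferase FTSJ3 (-0.57) and NOP53 (-0.51) also fell, each with a limma adjusted p of 0.0215 or less. Like all called members, they had no overlap between groups, which adds no support.

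Some of these calls were lost when 1 library was left out or the scaling was changed. A fit with fewer libraries detects less, so a lost call does not show that it rested on the library left out. NOL8 lost its call without undifferentiated 3 (-0.69), and NOC3L without undifferentiated 1 (-0.72) or 3 (-0.67). FTSJ3 lost it without undifferentiated 1 (-0.50) or 3 (-0.50), or without somatic 1 (-0.56) or 2 (-0.55). NOP53 lost it without undifferentiated 1 (-0.52) or somatic 1 (-0.46), under median of ratios scaling (-0.39, limma adjusted p 0.169) and under quantile normalization (-0.38, limma adjusted p 0.0602). RRP15 lost it under median of ratios scaling (-0.59, limma adjusted p 0.0684).

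PES1, BOP1 and WDR12 act as 1 complex in large subunit assembly, and only PES1 was called. Whether their changes differ was not tested. PES1 had 220.8, 235.4 and 268.9 TPM in somatic 1 to 3, and 400.7, 353.6 and 376.1 TPM in undifferentiated 1 to 3, and fell by 0.64 (limma adjusted p 0.00594). WDR12 had 106.4, 114.2 and 120.5 TPM in somatic 1 to 3, and 121.8, 131.8 and 123.4 TPM in undifferentiated 1 to 3, and was not called. Its change of -0.14 had a 95% interval of -0.40 to 0.11 (limma adjusted p 0.327), although the groups did not overlap. The PES1 to WDR12 ratio was 2.08, 2.06 and 2.23 in somatic 1 to 3, against 3.29, 2.68 and 3.05 in undifferentiated 1 to 3, without overlap. BOP1 had 34.1, 36.7 and 36.4 TPM in somatic 1 to 3, against 65.97, 22.8 and 64.3 TPM in undifferentiated 1 to 3. As for POLR1A, undifferentiated 2 alone lay below the somatic differentiated libraries. BOP1 changed by -0.36 (95% interval -1.28 to 0.57, limma adjusted p 0.495) with it and by -0.85 without it (limma adjusted p 0.00337).

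The remaining large subunit factors that were not called were NIP7 and NOC2L. NIP7 averaged 127.1 ± 20.7 TPM in somatic differentiated and 172.9 ± 14.1 TPM in undifferentiated cells (SD, n = 3 each), a change of -0.45 that missed the threshold (limma adjusted p 0.0517). Without undifferentiated 2 it was -0.50 and passed (limma adjusted p 0.0477). NOC2L averaged 165.1 ± 18.2 TPM and 190.4 ± 6.59 TPM in the same groups and overlapped between them (-0.21, limma adjusted p 0.194).

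NOL4 matched the symbol pattern but has no known part in ribosome assembly, and its level set it apart from the other 52 members. It had 0.560, 0.805 and 0.623 TPM in somatic 1 to 3, and 3.62, 2.31 and 2.35 TPM in undifferentiated 1 to 3, the lowest level of all members in both groups. NOL4 fell by 1.16 (limma adjusted p 0.00859), and its mean in somatic differentiated cells was 24.0% of that in undifferentiated cells, against 35.9% for POLR1B. Its log2 change depended on the pseudocount, with -1.89 at a pseudocount of 0.1 and -0.45 at 5, where POLR1B had -1.47 and -1.42.

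Undifferentiated 2 was at least 0.5 below the mean of undifferentiated 1 and 3 on the log2 scale in 6 members, BOP1, DDX18, NOL6, POLR1A, POLR1B and UTP20, which is 11.3% of the members against 33.1% of all genes tested. In 25 of the 53 it was the highest of the 3 undifferentiated libraries, and in 20 it was the lowest. Without it 45 members were called lower, and the 42 reported were all among them, while 31.8% of all genes tested fell. Why this library differed in these genes was not tested.

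The members lay on 19 chromosomes, 3 of them (NOL6, UTP15 and POLR1E) on the Z sex chromosome. Only a few were close to each other. UTP4 and NIP7 were 13665 bases apart on chromosome 11 and on the same strand, with 4 annotated genes between them. NOP58 and WDR12 were 172118 bases apart on chromosome 7, and UTP11 and GNL2 were 244284 bases apart on chromosome 23. In each of these 3 pairs 1 gene fell and the other was not called. UTP6 and NOL11, 468049 bases apart on chromosome 18, both fell. The UTP4 to NIP7 ratio was 0.203, 0.282 and 0.220 in somatic 1 to 3, against 0.346, 0.395 and 0.404 in undifferentiated 1 to 3.

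Summed over all 53 genes, the members held 0.992%, 1.08% and 1.01% of TPM in somatic 1 to 3, against 1.57%, 1.70% and 1.55% in undifferentiated 1 to 3. Without NPM1 and NCL, the sum was 4579 ± 134 TPM in somatic differentiated and 7408 ± 97.4 TPM in undifferentiated cells (SD, n = 3 each). The groups were separated by many times their spread on this sum. Undifferentiated 2 was close to the other undifferentiated libraries here.

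Ribosomal protein genes, whose products the biogenesis machinery assembles, did not move in this way. Of 69 genes matched by symbol, 1 fell (RPS20, -0.45, limma adjusted p 0.0461), 1 rose (RPS27L, a ribosomal-like gene, 1.37) and 67 were not called, with a median log2 change of 0.08. The match also took in other genes with ribosomal-like symbols, RPL3L, RPL7L1, RPL22L1, RPL26L1 and RPL39L, which were not separated. RPS20 lost its call without undifferentiated 3 (-0.49), or without somatic 1 (-0.40), 2 (-0.48) or 3 (-0.48). It also did so with no filter on low values (limma adjusted p 0.101), with no variance trend (0.0876) and under median of ratios scaling (-0.34, limma adjusted p 0.355). The summed level of the 69 genes was 144447 ± 5636 TPM in somatic differentiated and 144907 ± 26707 TPM in undifferentiated cells (SD, n = 3 each). Undifferentiated 2 was the highest library, at 175716 TPM. Undifferentiated 1 and 3, at 130695 and 128311 TPM, lay below all somatic differentiated libraries (139840 to 150732 TPM), so the means were alike only with undifferentiated 2 included. Per 100 TPM of ribosomal protein genes in the same library, the 51 members other than NPM1 and NCL measured 3.15, 3.14 and 3.22 TPM in somatic 1 to 3, against 5.67, 4.27 and 5.70 TPM in undifferentiated 1 to 3. The lowest undifferentiated library, undifferentiated 2, was still above all somatic differentiated ones.

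**Figure D3:**
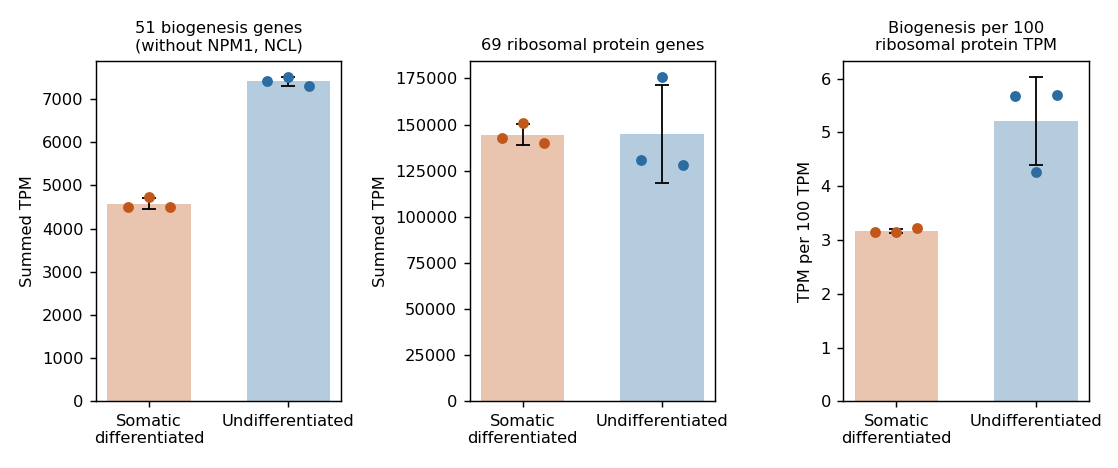
Summed TPM of 51 ribosome biogenesis genes (without NPM1 and NCL), of 69 ribosomal protein genes, and the first per 100 TPM of the second, by library. Bars are means, error bars the SD over 3 libraries and points the libraries; biogenesis sums separate the groups (4579 and 7408 TPM on average in somatic differentiated and undifferentiated cells), while ribosomal protein sums overlap.

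Translation initiation factors gave a second yardstick. Of 30, 5 fell and 0 rose (median log2 change -0.07), led by EIF2B4 (-0.76) and EIF2B1 (-0.65), which belong to the exchange factor that recharges eIF2. The 30 include EIF4EBP1, a binding protein of eIF4E rather than an initiation factor itself. EIF2B1 lost its call without undifferentiated 3 (-0.67) or somatic 1 (-0.64) and under median of ratios scaling (-0.54, limma adjusted p 0.0997). The share of initiation factors that fell was 16.7%, against 22.0% of all genes tested. Without undifferentiated 2 the count that fell was 8, and under median of ratios scaling it was 2. Per 100 TPM of initiation factors, the same 51 members measured 44.4 to 46.1 TPM in somatic differentiated and 73.8 to 76.1 TPM in undifferentiated libraries, without overlap.

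Other parts of the pathway, listed apart from the symbol rule, were lower as the members were. Among 27 further small subunit factors, 22 fell and 0 rose (median log2 change -0.765). AATF, a nucleolar protein that acts early in small subunit assembly, fell most, to 70.9, 90.4 and 64.6 TPM in somatic 1 to 3, against 218.1, 170.1 and 207.6 TPM in undifferentiated 1 to 3 (-1.39, limma adjusted p 0.0017), followed by the helicase DDX47 (-1.34). Among 36 further large subunit factors, 22 fell and 0 rose (median -0.66), led by RPF1 (-1.26) and DDX24 (-1.07). Under median of ratios scaling 19 of the 36 were called lower and 1 higher.

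Factors that assemble snoRNPs gave the lowest median of the ribosome biogenesis lists, -0.97, with 7 of 8 falling. SHQ1, which escorts newly made DKC1, had 26.0, 29.5 and 22.8 TPM in somatic 1 to 3, and 66.1, 64.5 and 70.1 TPM in undifferentiated 1 to 3. It fell by 1.33 (limma adjusted p 0.0013), set beside 0.83 for DKC1. TGS1, which modifies the cap of snoRNAs, fell by 1.098. Of 20 exosome subunits and nucleases that trim or cut the precursor, 15 fell and 0 rose (median -0.68), led by RPP30 (-0.98) and POP5 (-0.95), which are parts of RNase P and RNase MRP. Under median of ratios scaling 10 of the 20 were called lower, and 17.5% of all genes tested. MPHOSPH6 was not called (0.55, limma adjusted p 0.0595), but was higher without undifferentiated 2 (0.65, limma adjusted p 0.0449).

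Subunits of the other RNA polymerases were set beside Pol I. Of 8 subunits particular to RNA polymerase III, 3 fell and 0 rose (median -0.52), led by POLR3B (-0.96) and POLR3C (-0.92). Of 4 particular to RNA polymerase II, 3 fell and 0 rose (median -0.57), led by POLR2B (-0.76) and POLR2D (-0.70). Of 4 shared by all 3 enzymes, 1 fell (POLR2F, -0.60, limma adjusted p 0.0211) and 0 rose (median -0.39). The shares that fell were 37.5%, 75.0% and 25.0% of these small lists. Among all genes tested 22.0% fell, and among those whose mean reached 20 TPM 27.6% fell, so the share of shared subunits was near that of all genes. The POLR2F call was lost without somatic 2 (-0.57) or 3 (-0.57) and under median of ratios scaling (-0.49, limma adjusted p 0.134). The median of the listed POLR1 subunits was -0.83, but it is not a like measure. That list holds POLR1D (-1.16) and POLR1C (-0.83), which RNA polymerase III shares, and leaves out the Pol I subunit TWISTNB (-0.56), described below. The listed subunits not shared in this way were POLR1B (-1.46), POLR1E (-0.46) and POLR1A (-0.13). Whether Pol I differs from the other polymerases was not tested.

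**Figure D4:**
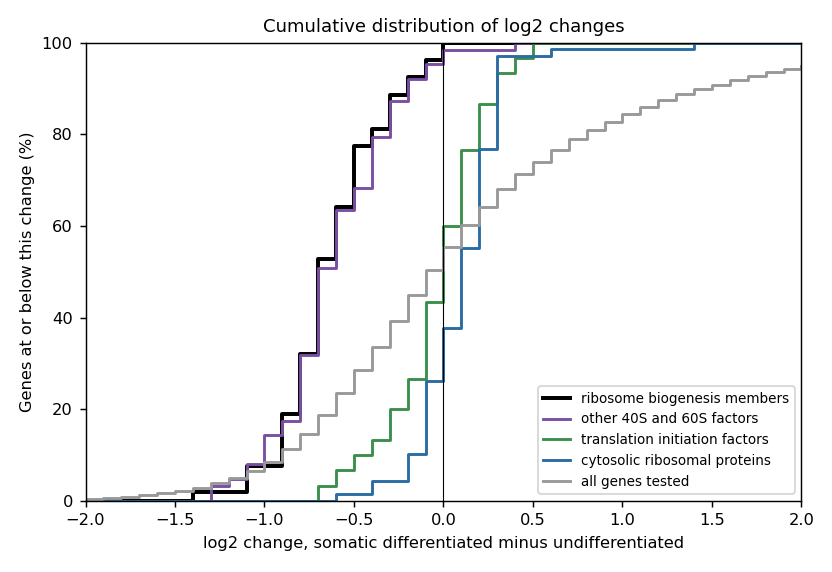
Share of genes (vertical axis, %) at or below each log2 change between somatic differentiated and undifferentiated cells (horizontal axis) for the 53 members, 63 further small and large subunit factors, 30 translation initiation factors, 69 ribosomal protein genes and all 12996 genes tested. The curves of the members and the further factors run together to the left, with medians near -0.7, while ribosomal proteins and initiation factors centre near 0.

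The factors that start Pol I transcription did not all fall. Of 14 Pol I initiation, termination and chromatin factors, 9 fell and 2 rose (median -0.66). The 9 include TWISTNB, an older symbol of the Pol I subunit POLR1F, which the POLR1 symbols counted above do not cover. TWISTNB fell by 0.56 (limma adjusted p 0.021). Its call was lost under median of ratios scaling (-0.44, limma adjusted p 0.14) and with the replicate block (limma adjusted p 0.0536). RRN3, which makes Pol I competent to start, had 26.6, 29.5 and 19.4 TPM in somatic 1 to 3, and 50.7, 59.2 and 55.5 TPM in undifferentiated 1 to 3, and fell by 1.12 (limma adjusted p 0.00466). TAF1B, a part of the promoter factor SL1, fell by 1.24 (limma adjusted p 0.00395), with 21.2 to 24.4 TPM in somatic differentiated and 44.2 to 71.1 TPM in undifferentiated libraries. TAF1A, another part of SL1, had 22.2, 21.3 and 19.6 TPM in somatic 1 to 3, against 10.7, 10.5 and 10.0 TPM in undifferentiated 1 to 3. It rose by 0.95 (limma adjusted p 0.00469), in the direction opposite to TAF1B. The other listed parts of SL1, TBP (-0.94, limma adjusted p 0.0047) and TAF1C (-0.95, limma adjusted p 0.00619), fell as TAF1B did.

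The other gene that rose, PTRF, is known both as a Pol I transcript release factor and as cavin-1, a coat protein of caveolae at the cell surface. It had 257.1, 380.4 and 406.9 TPM in somatic 1 to 3, and 27.2, 25.6 and 31.5 TPM in undifferentiated 1 to 3 (log2 change 3.56, limma adjusted p 0.000225). TCOF1, treacle, which links Pol I transcription to precursor processing, fell by 0.65 (limma adjusted p 0.00617), with 149.4 ± 7.404 TPM in somatic differentiated and 236.0 ± 24.6 TPM in undifferentiated cells (SD, n = 3 each). UBTF, which binds the ribosomal RNA genes and keeps them open, had 73.1, 75.4 and 67.8 TPM in somatic 1 to 3, and 70.0, 47.0 and 72.2 TPM in undifferentiated 1 to 3. It overlapped between groups and was not called (0.21, limma adjusted p 0.39).

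MYC genes changed in opposite directions. MYCN (ENSGALG00000016462, chromosome 3) had 122.1, 199.0 and 143.7 TPM in somatic 1 to 3, and 460.1, 423.0 and 459.2 TPM in undifferentiated 1 to 3, and fell by 1.55 (SE 0.18, limma adjusted p 0.0016). MYCL fell by 1.22 (limma adjusted p 0.00132), with 20.97 to 22.98 TPM in somatic differentiated and 50.5 to 56.4 TPM in undifferentiated libraries. MYC (ENSGALG00000033631, chromosome 2) had 121.4, 56.1 and 78.8 TPM in somatic 1 to 3, and 22.97, 9.77 and 14.97 TPM in undifferentiated 1 to 3, and rose by 2.36 (SE 0.37, limma adjusted p 0.00377). The MYC to MYCN ratio was 0.282 to 0.994 in somatic differentiated and 0.0231 to 0.0499 in undifferentiated libraries. MYC, MYCN and MYCL together summed to 262.4 ± 15.6 TPM in somatic differentiated and 516.0 ± 23.7 TPM in undifferentiated cells (SD, n = 3 each), without overlap. This sum adds transcripts of different genes and does not measure their joint activity. The part of MYC genes in the members' fall was not tested.

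Among the partners of MYC, MAX rose by 0.55 (limma adjusted p 0.0191). The MAX call did not hold without undifferentiated 3 (0.52), somatic 1 (0.55) or somatic 3 (0.51), or with the replicate block (limma adjusted p 0.0503). MXD4 and MXI1, which pair with MAX and oppose MYC, rose by 1.65 (limma adjusted p 0.00239) and 1.56 (limma adjusted p 0.00262). MXI1 had 83.2, 73.1 and 65.5 TPM in somatic 1 to 3, and 25.2, 18.1 and 31.2 TPM in undifferentiated 1 to 3. Over the 10 genes of this network 4 rose, 2 fell and 4 were not called. Without undifferentiated 2 the count that fell was 4, with MNT (-0.84, limma adjusted p 0.00513) and MGA (-0.88, limma adjusted p 0.00956) added.

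**Figure D5:**
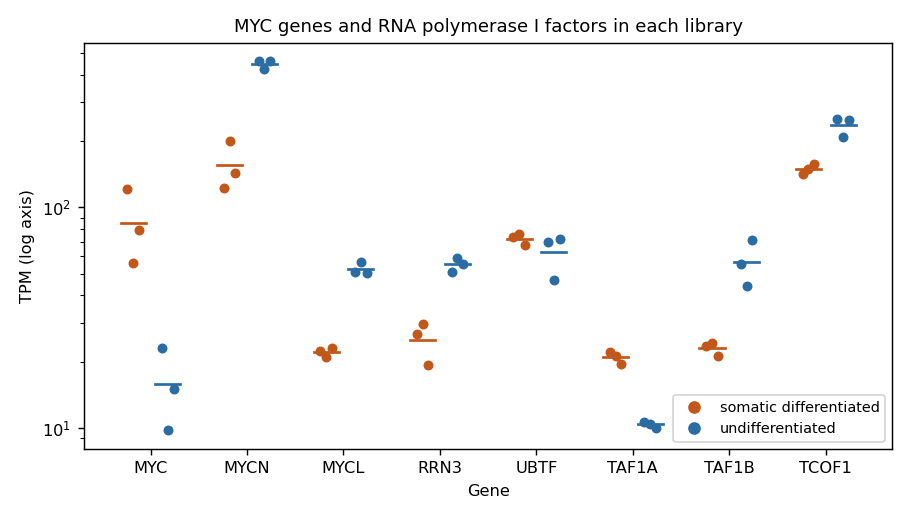
TPM of MYC genes and Pol I transcription factors in each library (log axis), with somatic differentiated points to the left of undifferentiated ones for each gene and bars at the group means. MYC and TAF1A are higher and MYCN, MYCL, RRN3, TAF1B and TCOF1 lower in somatic differentiated cells, and UBTF overlaps.

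When assembly of the large subunit is disturbed, RPL5 and RPL11 are known to bind MDM2 and release p53. RPL5 (0.08), RPL11 (0.22) and MDM2 (0.87) were not called, with limma adjusted p of 0.724, 0.301 and 0.107. RPL11 passed without undifferentiated 2 (0.37, limma adjusted p 0.0491). MDM2 passed without somatic 3 (1.202, limma adjusted p 0.0488), under median of ratios scaling (0.99, limma adjusted p 0.0345) and under quantile normalization (0.96, limma adjusted p 0.049). MDM4, a relative of MDM2, was not called (-0.63, limma adjusted p 0.21), but was lower without undifferentiated 2 (-1.04, limma adjusted p 0.0124). CDKN1A, a p53 target that halts the cell cycle, had 213.2, 162.1 and 181.1 TPM in somatic 1 to 3, and 22.3, 19.9 and 23.5 TPM in undifferentiated 1 to 3, and rose by 3.02 (limma adjusted p 0.000169). CDKN1A was the 1 gene of 6 in this list that was called with all libraries.

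Cell cycle genes and some markers of other cell types also differed between the groups. Of 20 cell cycle genes, 16 fell and 0 rose (median log2 change -0.73), led by BIRC5 (-1.11) and MCM2 (-0.95), and their summed level was 1876 to 2214 TPM in somatic differentiated and 3064 to 3291 TPM in undifferentiated libraries. Of 8 endothelial markers 6 were tested: FLT1, CDH5 and ERG were higher, KDR was lower and 2 were not called. KDR (-1.16, limma adjusted p 0.0454) kept its call without undifferentiated 2 (-1.55), and lost it without undifferentiated 1 (-0.88) or 3 (-1.05) or somatic 1 (-1.16), 2 (-1.04) or 3 (-1.28), with a pseudocount of 5 (-0.58) and with no filter on low values (limma adjusted p 0.0701). The endothelial sum was 92.4 to 144.4 TPM in somatic differentiated and 15.1 to 28.4 TPM in undifferentiated libraries, and VWF was listed at 0.115 TPM or less. The highest single value was 90.96 TPM, so 1 gene made up most of at least 1 of these sums. Leukocyte markers summed to 9.53 to 34.7 TPM and 7.08 to 9.18 TPM in the same groups, with SPI1 at 0.0659 TPM or less. Of the 4 tested 0 were called, though 1 had every somatic differentiated library above every undifferentiated one, as 25.0% of all genes tested did. The highest single leukocyte value was 17.7 TPM, above the whole sum of every library but somatic 1. Erythroid markers summed to 3.47 to 20.1 TPM and 0.670 to 3.48 TPM, with HBA1 listed at 0 in all libraries. The erythroid sums overlapped between groups. The 1 erythroid gene tested was not called, but its log2 change was 1.84 and every somatic differentiated library lay above every undifferentiated one. The highest single erythroid value was 18.0 TPM, also above the sum of every library but somatic 1, which held the highest sum of both lists. The part of proliferation, of remaining germ cells or of these cell types in the members' fall was not tested.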

How the data were processed

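The authors deposited 1 table of TPM per gene for 6 chicken libraries. Per the submitters' processing notes, FastQC 0.11.9, Trimmomatic 0.39, Trim Galore 0.6.6, cutadapt 3.1, STAR 2.7.3a, RSEM 1.3.1 and the build GRCg6a were used. The annotation release is not given in the sources used here. The 6 value columns matched the sample descriptions, with 0 left unmapped. TPM gives no depth, so no counting interval was computed. Near-identical copies can share reads, which TPM cannot separate.

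The test was limma (version 3.58.1, under R 4.3.3), two-sided, with moderated variances, a trend and no covariates, on log2(TPM + 1) of every gene whose mean reached 1 TPM. Calls needed a Benjamini-Hochberg adjusted p below 0.05 and no minimum change. The code was tested on simulated data. Tables and plots were made with Python 3.11.15, pandas 2.3.3, numpy 2.4.6 and matplotlib 3.10.9.

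The members, lists, roles and tests were chosen with earlier results of these data known, so the lists give no independent support. Named were all listed POLR1 subunits and a panel of core factors, the 5 largest and 5 smallest changes, and members of another function. From each list came at most 2 called genes in each direction, plus MYC, MYCN, UBTF, RRN3 and TCOF1. The remaining members are given with their changes so that all are accounted for. MYCL, MAX, MXI1, MNT, MGA, MDM2, MDM4, RPL5, RPL11, TWISTNB, TBP, TAF1C and MPHOSPH6 were added after their values were seen. The same holds for the cell type markers with values of their own. FBL, NOP10, PWP2 and 51 list symbols with no unique match in the table are not analysed here. Alternatives changed the pseudocount (0.1 or 5), the filter (none, or a mean of at least 5), the scaling, the variance trend, the library weights and the minimum change (1), used the replicate number as a block, and dropped the libraries 1 at a time. The labels name no batch.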

Additional observations from a re-analysis of the deposited data

How the results depend on the processing

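In each of the 16 alternatives 0 members were called higher and the members' median stayed below 0. The count of members called lower was 29 with median of ratios scaling, 39 with the replicate block and 41 to 47 in the other alternatives that kept all libraries, apart from a minimum change of 1, which left 4. It was 34 to 45 when 1 library was left out. Of the 42 calls, 25 held in all alternatives in which the gene was tested, apart from the minimum change. The members' median log2 change was -0.587 with median of ratios scaling and -0.607 with quantile normalization, and -0.743 to -0.645 when 1 library was left out. Of all genes tested, 2854 were called lower as reported, 4683 with array weights, 1010 with a minimum change of 1, and 1542 to 4150 when 1 library was left out. Changes of 3 uncalled members and of RPL5 switched sign. POLR1A was at 0.0074 and 0.0592 without undifferentiated 1 or 3, within -0.4707 to 0.0592 over the 6 libraries left out. UTP11 was at 0.0764 with median of ratios scaling, 0.1059 with quantile normalization, 0.1676 with array weights, 0.1139 without undifferentiated 2 and 0.0494 without somatic 3, within -0.1762 to 0.1139 over the libraries left out. TSR3 was at 0.1036 with median of ratios scaling, 0.0801 with array weights, 0.0516 without undifferentiated 2, and 0.0116 and 0.0151 without somatic 2 or 3, within -0.0586 to 0.0516 over the libraries left out. RPL5 was at -0.0042 without undifferentiated 1 and -0.0235 without somatic 2, within -0.0235 to 0.2328. The cause was not tested. Array weights also called BOP1, IMP3, NIP7, NOC4L and POLR1A, and MNT, MGA, MDM2, MDM4 and RPL11 outside the members. MNT also passed with quantile normalization.

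The labels give both groups the replicate numbers 1 to 3, but nothing says that a number marks a shared line or day. Deviations from the group means correlated at 0.192, 0.0131 and 0.14 for numbers 1, 2 and 3 over all genes tested. The values for numbers 1 and 3 were above those of all other combinations, of which the highest was 0.112 (undifferentiated 3 with somatic 2). Undifferentiated 2 was near 0 with somatic 2 and with somatic 1 (0.021). These values do not settle whether the numbers mark pairs, so the main fit used no pairs and the block is given beside it. With the replicate block, 39 members were called lower, and the calls of GAR1, POLR1E and UTP23 were lost. The block called 2211 of all genes lower and 2246 higher.

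TPM values hold no depth, so how far depth limits the calls is unknown. The 95% intervals of the uncalled POLR1A, BOP1, RRP7A, NOC4L and NIP7 reach past the members' median fall.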
